A study of Danio rerio with 12 samples.

Results

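Foxj1 and Rfx proteins are the DNA-binding factors that switch on the genes of motile cilia, and 6 of the genes that encode them are described here: foxj1a, foxj1b, rfx1a, rfx2, rfx3 and rfx4. They were taken by symbol from a table of 31953 zebrafish genes, of which 17609 reached a mean of 1 normalized count and were tested; all 6 genes passed this filter. Dorsal forerunner cells (DFCs) form a cluster ahead of the dorsal margin of the gastrula and later build Kupffer's vesicle, whose motile cilia drive the flow that sets left and right. The DFC clusters were dissected from Tg(sox17:GFP) embryos at 90% epiboly, after injection of morpholinos, antisense oligomers that block translation or splicing, at the 1-cell stage. Control embryos received 8 ng of standard control morpholino. Vgll4l-KD embryos received 4 ng of a splice morpholino against vgll4l, which encodes a cofactor of the Tead proteins of the Hippo pathway. Yap/Taz-KD embryos received 4 ng of a Yap morpholino and 4 ng of a Taz splice morpholino, aimed at the 2 coactivators of that pathway; the loss of the proteins was not measured here. Each group holds 4 libraries, each from 1 cluster. The knockdown was not restricted to the DFCs, and a cluster cut out under a microscope can carry neighbouring cells.

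Foxj1 is a forkhead protein at the head of the motile ciliogenesis program: it turns on dynein arms, their assembly factors and other parts of the beating axoneme. Rfx proteins share a winged-helix domain that binds the X box, a short element in the promoters of many ciliary genes, and they act on the intraflagellar transport machinery of motile and immotile cilia as well as on Foxj1 targets. In zebrafish, foxj1a and rfx2 are both needed for the cilia of Kupffer's vesicle.

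The libraries held between 4487894 and 6148871 reads in genes in the control group, between 8698990 and 11235726 in the Vgll4l-KD group and between 9071323 and 10774775 in the Yap/Taz-KD group. Within groups, control libraries 1 and 2 lay close to each other and so did 3 and 4, and Vgll4l-KD library 2 stood apart from the other 3 of its group. The Yap/Taz-KD libraries also lay close together: over their pairs the mean chi-square per gene against counting noise was 1.59 to 2.23. It was 1.73 for control libraries 1 and 2 and 1.61 for 3 and 4, and 1.78 for Vgll4l-KD libraries 3 and 4. Every pair differed by more than counting noise, which cannot show whether the libraries arose independently. Each was counted as 1 replicate. The labels call the replicates biological and say no more of how they arose, so p-values measure only the spread between these libraries. The transcript of vgll4l had 6944 ± 266 normalized counts in control clusters, 1062 ± 43.9 in Vgll4l-KD and 1606 ± 53.6 in Yap/Taz-KD clusters (SD, n = 4). A morpholino need not lower the RNA of its target, and yap1 had 2250.5 ± 116, 1442 ± 76.5 and 1784 ± 30.5, whereas wwtr1, which encodes Taz, had no read in control clusters and 11 and 50 reads in the knockdown groups.

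The normalized counts below are reads divided by a size factor of each library, and they were compared on the log2(count + 1) scale in limma over all 17609 genes. A gene is said to have fallen or risen when its adjusted p was under 0.05 and its log2 fold change at least 1 in size. Of the 6 genes, 5 fell and 1 rose in Vgll4l-KD clusters, where 71.4% of all genes tested were called, 40.9% as lower and 30.5% as higher. Of the same genes 4 fell and 2 rose in Yap/Taz-KD clusters, where 68.7% of all genes were called, 38.7% as lower and 30% as higher. In both knockdowns the 4 libraries of each of the 6 genes lay wholly outside the range of the control libraries, which also held for 79.2% and 80.9% of all genes tested. A call by itself therefore does not set any of the 6 genes apart from the transcriptome of these clusters, and the sizes of the changes are given below.

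**Figure D1:**
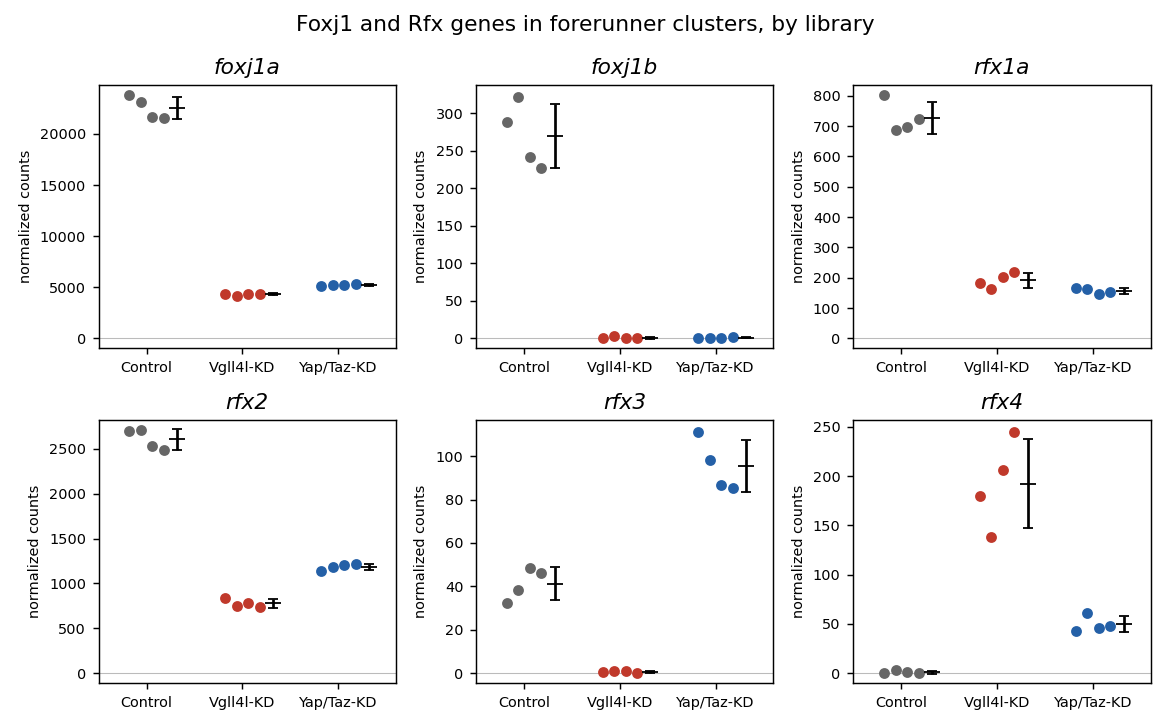
Normalized counts of the 6 genes in each of the 12 libraries, 1 panel per gene, each with its own linear axis from 0. Dots are libraries in the order of their replicate numbers, and the bar beside them is the mean with the SD of 4 libraries. For foxj1a, foxj1b, rfx1a and rfx2 the control libraries lie above all knockdown libraries; rfx3 is near 0 in Vgll4l-KD clusters and highest in Yap/Taz-KD clusters, and rfx4 is near 0 in control clusters.

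The transcript of foxj1a (ENSDARG00000101919), a Foxj1 gene that DFCs express, fell in both knockdowns, somewhat further in Vgll4l-KD clusters. It had 23811, 23143.5, 21689 and 21541 normalized counts in control clusters 1 to 4. Vgll4l-KD clusters had 4338, 4157, 4387 and 4316, and Yap/Taz-KD clusters 5123, 5194, 5204 and 5301. The knockdown libraries differed little among themselves, and control clusters 1 and 2 lay above 3 and 4. The means of 22546 ± 1111, 4299.7 ± 99.6 and 5206 ± 73.2 (SD, n = 4) gave log2 fold changes of -2.39 (SE 0.03, limma adjusted p = 1.5e-15) for Vgll4l-KD and -2.11 (SE 0.03, adjusted p = 6.9e-15) for Yap/Taz-KD. The mean in control clusters was 5.24 times that in Vgll4l-KD and 4.33 times that in Yap/Taz-KD clusters. For comparison, 28.6% of all genes tested had a lower log2 fold change than foxj1a in Vgll4l-KD and 27.9% in Yap/Taz-KD clusters.

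Its paralog foxj1b (ENSDARG00000088290), which in zebrafish is known from other ciliated tissues such as the ear, was close to absent after either knockdown. Control clusters had 288, 322, 242 and 227 normalized counts. Vgll4l-KD clusters had 0, 2.83, 0 and 0.922, which come from 4 reads in all, and Yap/Taz-KD clusters had 0.666, 0, 0.722 and 1.46, again from 4 reads. The 796 reads of the control group against these gave ratios of 296.5 (95% counting interval 115 to 1091) and 365 (142 to 1343). The limma log2 fold changes were -7.35 (SE 0.42, adjusted p = 8.9e-10) and -7.36 (SE 0.42, adjusted p = 8.9e-10), and depend on the count added before taking logs. In Vgll4l-KD clusters 1.19% of all genes, and in Yap/Taz-KD clusters 1.99%, had a lower value. Relative to its control level foxj1b thus ended far below foxj1a.

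Among the Rfx genes, rfx2 (ENSDARG00000013575) fell in both groups, and further in Vgll4l-KD clusters. It had 2704, 2712, 2535 and 2482 normalized counts in control clusters, 841, 743, 779.8 and 742 in Vgll4l-KD clusters and 1135, 1179, 1207 and 1214 in Yap/Taz-KD clusters. The 3 groups did not overlap, and as for foxj1a, controls 1 and 2 were the highest. The means of 2608 ± 117, 776 ± 46.3 and 1184 ± 35.7 gave log2 fold changes of -1.75 (SE 0.05, adjusted p = 1.4e-12) and -1.14 (SE 0.05, adjusted p = 6.6e-11). The second value lies near the fold threshold: with TMM scaling, which aligns the bulk of the genes between libraries, it was -0.995 and no longer passed.

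The gene rfx1a (ENSDARG00000005883) is one of the zebrafish counterparts of mammalian RFX1. It had 803, 687, 696 and 722 normalized counts in control clusters, 183, 162, 201 and 219 in Vgll4l-KD clusters, and 165, 163, 147 and 152 in Yap/Taz-KD clusters. All 8 knockdown libraries lay below all controls, and the knockdown groups overlapped each other. The means were 727 ± 52.9, 191 ± 24.5 and 157 ± 8.92, with log2 fold changes of -1.93 (SE 0.10, adjusted p = 2.3e-10) and -2.21 (SE 0.10, adjusted p = 6.2e-11).

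The 2 knockdowns moved rfx3 (ENSDARG00000014550) in opposite directions. In the mouse this gene is needed for the cilia of the node, the counterpart of Kupffer's vesicle. It had 32.4, 38.1, 48.5 and 46.2 normalized counts in control clusters, from 127 reads. In Vgll4l-KD clusters it had 0.764, 0.944, 0.977 and 0, from 3 reads in all, and in Yap/Taz-KD clusters it had 111, 98.2, 86.6 and 85.4, from 527 reads. No Vgll4l-KD library had more than 1 read, and every Yap/Taz-KD library lay above every control. The ratio of control to Vgll4l-KD was 63.1 (95% counting interval 21.1 to 309.9), and the log2 fold change -4.69 (SE 0.26, adjusted p = 5.9e-10). After Yap/Taz knockdown rfx3 rose by a log2 of 1.197 (SE 0.26, adjusted p = 0.00065), from 41.3 ± 7.41 to 95.4 ± 12.1. This rise missed the threshold, with an adjusted p of 0.093, when control libraries 1 and 2, 3 and 4, and all Yap/Taz-KD libraries were averaged as near-identical; under the other alternatives run it was called, except with a log2 fold threshold of 2. Opposite calls in the 2 knockdowns were made for 7.22% of all genes tested.

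The last of the 6, rfx4 (ENSDARG00000026395), was at the limit of detection in control clusters and present in every knockdown library. In the mouse this gene is known for its part in the neural tube. Control clusters had 0, 3.05, 1.13 and 0 normalized counts, from 3 reads in all. Vgll4l-KD clusters had 180, 139, 206 and 245, from 860 reads, and Yap/Taz-KD clusters had 43.3, 61.5, 45.5 and 48.2, from 271 reads. The ratio to control was 192 (95% counting interval 65.6 to 935) in Vgll4l-KD and 49.3 (16.7 to 240) in Yap/Taz-KD clusters. The log2 fold changes were 6.79 (SE 0.39, adjusted p = 9.7e-10) and 4.87 (SE 0.39, adjusted p = 3.5e-08). Of the 17609 genes tested, 245 had a higher value in Vgll4l-KD clusters and 1107 in Yap/Taz-KD clusters. Among the 4 Vgll4l-KD libraries its spread was 11.5 times the counting noise, the widest of the 6 genes in that group.

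Vgll4l-KD was compared directly with Yap/Taz-KD, where 63.2% of all genes tested were called, 33.2% as lower and 30% as higher in Vgll4l-KD clusters. Of the 6 genes, rfx3 was lower in Vgll4l-KD clusters (log2 difference -5.89, SE 0.26, adjusted p = 8.2e-11) and rfx4 was higher (1.92, SE 0.39, adjusted p = 0.00045). The Yap/Taz-KD mean of rfx3 was 143 times the Vgll4l-KD mean by reads (95% counting interval 48.6 to 694), and the Vgll4l-KD mean of rfx4 was 3.88 times the Yap/Taz-KD mean. The other 4 genes did not reach the fold threshold. Of these, foxj1a was 0.28 lower on the log2 scale in Vgll4l-KD clusters (difference -0.28, adjusted p = 2e-06) and rfx2 0.61 lower (difference -0.61, adjusted p = 5e-08), each with no overlap between the groups. Over all genes tested, 75.3% had no overlap between the knockdown groups, and of the 6 genes 4 had none. The difference for rfx1a was 0.28 (adjusted p = 0.016), with overlapping groups. For foxj1b it was 0.02 (95% interval -0.89 to 0.92, adjusted p = 1.0), values that depend on the count added before taking logs. By reads, with 4 on each side, the ratio of Vgll4l-KD to Yap/Taz-KD was 1.23 (95% counting interval 0.229 to 6.61). A ratio within this wider interval was not detectable.

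The spread between libraries was nearest to counting noise in the Yap/Taz-KD group, where the variance of the 6 genes was 0.673 to 2.09 times that of counting alone. In the control group it ran from 0.953 times for rfx3 to 5.18 for foxj1b and 40.4 for foxj1a, the most deeply counted gene. Among the Vgll4l-KD libraries it ran from 0.346 times for rfx3 to 3.48 for rfx1a and 11.5 for rfx4. Without Vgll4l-KD library 2, which stood apart, the log2 fold changes of foxj1a, foxj1b, rfx1a, rfx2, rfx3 and rfx4 in Vgll4l-KD clusters were -2.37, -7.75, -1.85, -1.73, -4.78 and 6.94. All 6 calls held without this library.

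The other Foxj and Rfx genes were described from a list of 10, which gave 9 IDs, and 7 of these IDs were tested. More than 1 of the IDs is named rfx7, and rfx8 had no ID. In Vgll4l-KD clusters 4 of the 7 fell and none rose, with a median log2 fold change of -1.97 against -0.26 over all genes tested. Among Yap/Taz-KD clusters 3 fell and 1 rose, with a median of -0.21 against -0.27. The list thus gave more falls than the 40.9% of all genes in Vgll4l-KD clusters and about the background share of 38.7% in Yap/Taz-KD clusters, and 7 genes carry little weight.

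The paralog rfx1b (ENSDARG00000075904) had 1499 ± 83.2 normalized counts in control, 384 ± 31.5 in Vgll4l-KD and 107 ± 6.62 in Yap/Taz-KD clusters. It fell with rfx1a in Vgll4l-KD clusters, by a log2 fold change of -1.97 (SE 0.08, adjusted p = 2.1e-11) against -1.93 for rfx1a. It fell further in Yap/Taz-KD clusters, with -3.80 (SE 0.08, adjusted p = 7e-14) against -2.21. Unlike rfx1a it was called between the knockdowns, 1.84 higher in Vgll4l-KD clusters (adjusted p = 4.9e-11).

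Rfx7 is a divergent member of the family. Of its 2 IDs, which the reference names alike, ENSDARG00000103691 fell in both knockdowns, from 1005 ± 74.7 to 89.3 ± 16.1 (log2 fold change -3.49, adjusted p = 8.6e-12) and 194 ± 12.8 (-2.36, adjusted p = 3.3e-10). The other, ENSDARG00000077237, had a pattern like that of rfx3. It had 41.4 to 62.6 normalized counts in control clusters, 0 to 5.66 in Vgll4l-KD clusters, from 8 reads, and 98.2 to 123 in Yap/Taz-KD clusters. It fell in Vgll4l-KD clusters (ratio 28.9, 95% counting interval 14.3 to 68.05; the mean was 1.80, and 0.509 without library 2, which had the 5.66), and its log2 fold change of 1.03 in Yap/Taz-KD clusters was not called (adjusted p = 0.062), although the groups did not overlap. Without Vgll4l-KD library 2, 3 or 4, each left out alone, this value of 1.03 was called, and the count of listed genes that rose was then 2.

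The gene rfx6, known for the endocrine pancreas and made in early endoderm of the mouse, had no read in any control library. It had 3 reads in Vgll4l-KD clusters and 47.2 ± 3.82 normalized counts in Yap/Taz-KD clusters, at least 47.3-fold higher than control when the control group is set to a floor of 3 reads. In mammals RFX5, RFXAP and RFXANK form the complex that binds promoters of class II histocompatibility genes. Here rfx5 had 19, 18 and 1 reads in the 3 groups and fell in Yap/Taz-KD clusters (ratio 34.8, 95% counting interval 5.54 to 1448). The level of rfxap was 23.1 ± 5.19 in control clusters, 0 in all Vgll4l-KD libraries, at least 34.4-fold lower at the same floor, and 19.6 ± 2.80 in Yap/Taz-KD clusters. Neither rfxank nor foxj2 had a read in any of the 12 libraries. The forkhead gene foxj3 had 41.3 ± 16.6, 73.0 ± 11.4 and 57.5 ± 5.87 and was not called in either knockdown (adjusted p = 0.0063 at a log2 fold change of 0.90, and 0.064 at 0.57).

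**Figure D2:**
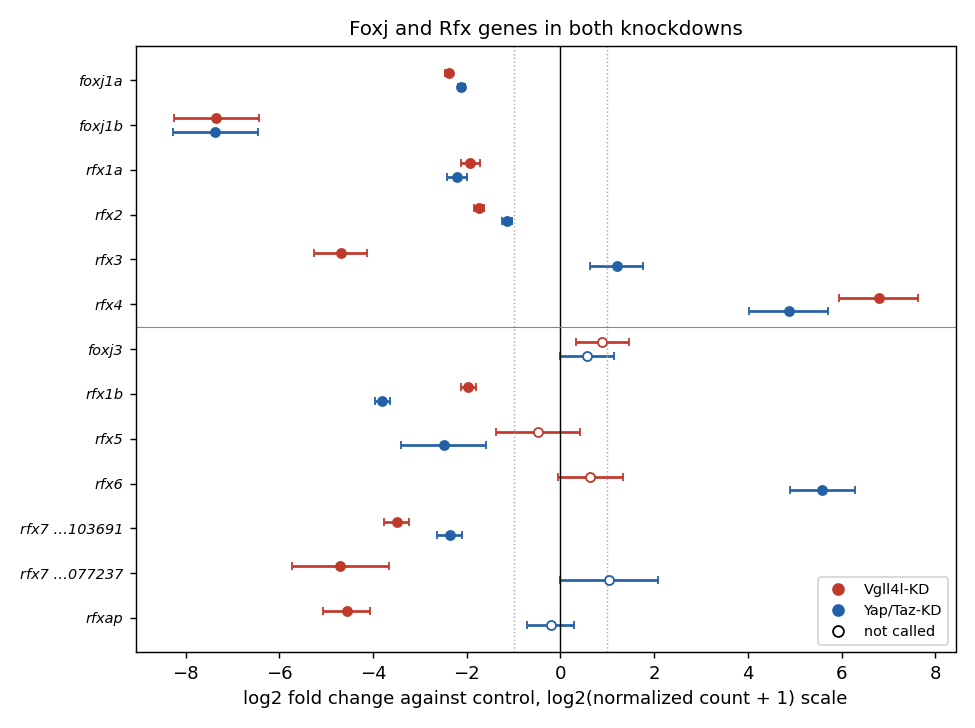
Log2 fold changes against control, on the log2(normalized count + 1) scale, with 95% intervals from limma, for the 6 genes (above the line) and the 7 other tested Foxj and Rfx genes. Filled points are called, open points are not, and dotted lines mark the fold threshold of 1. rfx3 lies on opposite sides of 0 in the 2 knockdowns, as does the second rfx7 ID, whose Yap/Taz-KD interval reaches -0.01. The fitted values of foxj1b, rfx3, rfx4, rfx5, rfx6, rfxap and the second rfx7 ID rest on a group with few or no reads. The value of rfx2 in Yap/Taz-KD clusters was 0.14 when libraries were scaled to the DFC markers.

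Genes that other work places above foxj1a or beside it in ciliated cells were counted next, and the largest falls and rises are named among called genes whose higher group averaged 50 or more. Of 8 tested regulators of multiciliated cells, 3 fell and 1 rose in Vgll4l-KD clusters (median -0.53) and 2 fell and 3 rose in Yap/Taz-KD clusters (median 0.05). The 37.5% that fell in Vgll4l-KD and the 37.5% that rose in Yap/Taz-KD clusters lie near the 40.9% and 30% of all genes tested. The gene gmnc, which acts above foxj1 in multiciliated cells, stood out among them and moved like foxj1b: it had 287 ± 24.98 normalized counts in control, 1.18 ± 2.36 in Vgll4l-KD and 0.866 ± 1.26 in Yap/Taz-KD clusters (log2 fold changes -7.54 and -7.49, adjusted p = 1.4e-08 and 1.6e-08). All its reads in the Vgll4l-KD group came from library 2, at 4.72, and the other 3 libraries were at 0. The largest rises were those of tfdp1b in Vgll4l-KD clusters (1.23) and of tfdp1a (1.23) and the second of 2 IDs named ulk4 in Yap/Taz-KD clusters (6.96), whereas the first ulk4 ID fell in both (-5.84 and -3.08). Below the level of 50, myb rose in Yap/Taz-KD clusters from 1.14 ± 1.59 to 33.1 ± 7.23 (4.25). The 2 ulk4 IDs and the 2 rfx7 IDs may share reads, since how reads matching more than one gene were counted is not given in the sources used here.

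Of 15 tested genes reported upstream of foxj1a in forerunner or node cells, 9 fell and 5 rose in Vgll4l-KD clusters (median -1.01) and 5 fell and 2 rose in Yap/Taz-KD clusters (median -0.68). In Vgll4l-KD clusters 60% fell against 40.9% of all genes, while the 33.3% that rose there and the 33.3% that fell in Yap/Taz-KD clusters lie near the 30.5% and 38.7% of all genes. The falls in Vgll4l-KD clusters include sox17, sox32, ta and tbx16, which are also DFC markers, so the 2 lists are not independent. They also include fgf8a and fgfr1a, which lay at the fold threshold (each -1.01). With TMM scaling 4 fell in Vgll4l-KD clusters, and 1 with the libraries scaled to the summed DFC markers. Among those that fell were ier2b, an immediate early gene of the Fgf pathway in DFCs, from 178 ± 19.2 to 0.466 ± 0.539 and 34.0 ± 5.50 (log2 fold changes -7.00 and -2.36), its partner fibpa (-2.37 and -2.03), and the T-box gene tbx16 (-1.21 and -3.46). The Wnt effector lef1 rose in both (1.35 and 1.11), and the ligand gene fgf24 rose from 18.04 ± 6.04 to 612 ± 95.8 in Vgll4l-KD clusters (5.05). The homeobox gene noto, which acts above foxj1 in the mouse node, had log2 fold changes of 0.49 and -0.12 and was called in neither.

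Below these factors, the motile axoneme genes of the Foxj1 program fell more often in Vgll4l-KD than in Yap/Taz-KD clusters. In Vgll4l-KD clusters 25 of 29 tested fell and 1 rose, with a median log2 fold change of -2.32 against -0.26 over all genes. In Yap/Taz-KD clusters 10 fell, 4 rose and 15 were not called, with a median of -0.45 against -0.27. Falls made up 86.2% and 34.5% in the 2 knockdowns, against 40.9% and 38.7% of all genes. Scaled to the summed DFC markers, a scaling chosen after the data were seen, 13 fell and 2 rose in Vgll4l-KD clusters. In Yap/Taz-KD clusters 4 fell and 12 rose on this scale. Of all genes, this scaling gave 30.9% lower and 45.0% higher in Vgll4l-KD clusters. In Yap/Taz-KD clusters it gave 28.4% lower and 44.4% higher, so rises outnumbered falls there among all genes too. Between the knockdowns 22 of the 29 were lower in Vgll4l-KD clusters (75.9%, against 33.2% of all genes) and 2 higher. The largest falls in Vgll4l-KD clusters were those of cfap45, an axoneme component (1234 ± 113.5 to 8.98 ± 14.8 normalized counts, log2 fold change -8.14), and of lrrc6, a dynein arm assembly factor (1603 ± 176.5 to 11.1 ± 17.2, -8.00). Most of what was left came from Vgll4l-KD library 2, with 31.2 and 36.8 normalized counts; without it the means were 1.59 ± 1.48 and 2.54 ± 1.11 (SD, n = 3) and the log2 fold changes -9.11 and -8.86. The largest falls in Yap/Taz-KD clusters were those of lrrc6 (44.9 ± 8.57, -5.14) and the inner arm dynein gene dnah7 (-3.27). The dynein gene dnah9 was the exception in Vgll4l-KD clusters, rising from 26.7 ± 6.17 to 446 ± 43.7 (4.04), and it rose in Yap/Taz-KD clusters too (2.71), together with ccdc39 (2.07), a ruler of axoneme repeats.

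The genes of intraflagellar transport, the Bardet-Biedl complex and the transition zone were listed for the Rfx program. They also fell more often in Vgll4l-KD than in Yap/Taz-KD clusters. In Vgll4l-KD clusters 20 of 24 tested fell and 2 rose (median -3.65 against -0.26 over all genes). This is 83.3% falls against 40.9% of all genes. In Yap/Taz-KD clusters 12 fell and 3 rose (median -0.89 against -0.27). There 50% fell, above the 38.7% of all genes, whereas motile axoneme genes stayed at 34.5%. Scaled to the summed DFC markers 17 fell and 3 rose in Vgll4l-KD, and 8 fell and 8 rose in Yap/Taz-KD clusters. On this scale 30.9% and 28.4% of all genes fell, and 45.0% and 44.4% rose. The transport gene ift140 fell furthest in both, from 2010.5 ± 122 to 11.4 ± 16.3 and 25.5 ± 5.01 (-8.11 and -6.27), followed by bbs2 in Vgll4l-KD clusters (-7.28) and tctn1 in Yap/Taz-KD clusters (-4.71). Without Vgll4l-KD library 2, which had 35.9 and 6.61 normalized counts of ift140 and bbs2, the Vgll4l-KD means were 3.30 ± 0.876 and 0.255 ± 0.441 and the log2 fold changes -8.89 and -7.95. The transition zone gene tmem107 rose in both (3.88 and 2.34), ift46 in Vgll4l-KD clusters (1.22) and ift80 in Yap/Taz-KD clusters (2.76). The lists of both programs were drawn up with earlier results of these data known, and their counts are a description. Fewer DFCs in a cluster and less RNA of a gene per DFC cannot be told apart in these libraries.

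**Figure D3:**
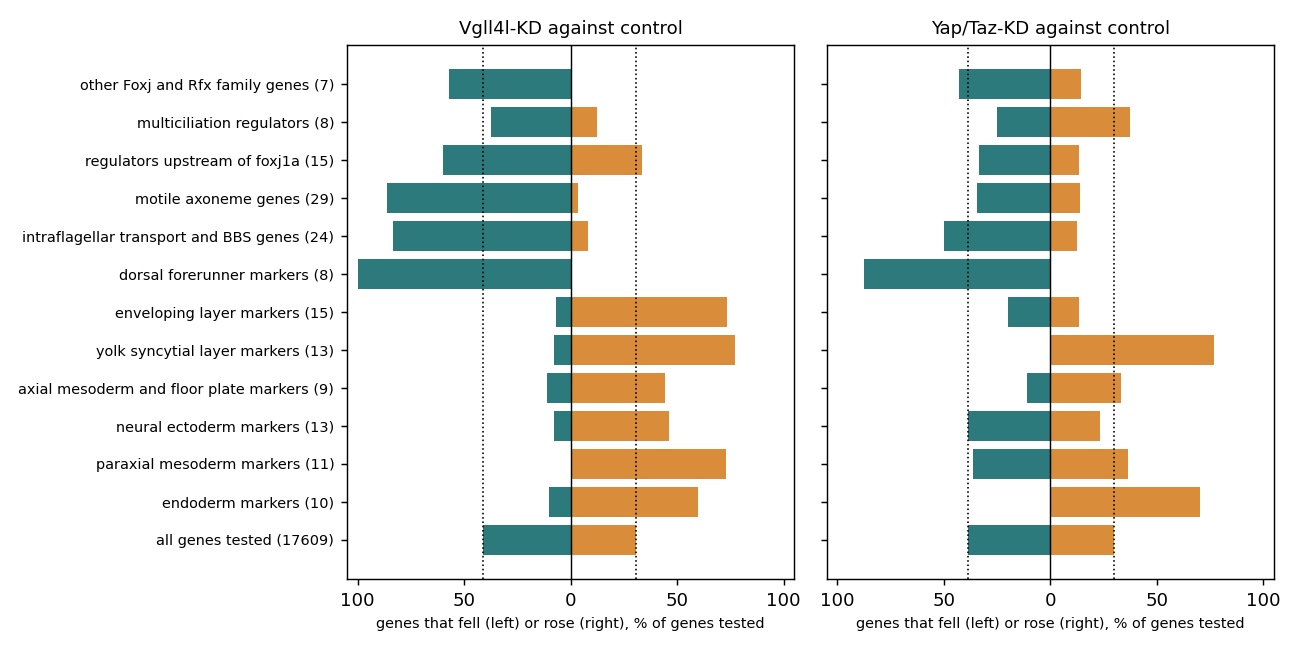
Share of the tested genes of each list that fell (left of 0) or rose (right of 0) in Vgll4l-KD and Yap/Taz-KD clusters, in percent, with the number tested in brackets; dotted lines mark the shares among all 17609 genes. The 2 cilia lists and the DFC markers, most of them already known to fall, reach furthest to the left in Vgll4l-KD clusters. Regulators upstream of foxj1a (60%) and other Foxj and Rfx genes (57.1%) also pass the 40.9% of all genes there. In Yap/Taz-KD clusters motile axoneme genes stay at 34.5%, close to the 38.7% of all genes.

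The RNA of cell type markers also differed between the groups, and this does not by itself measure the makeup of the clusters. The 8 DFC markers, which include sox17, sox32, ta (tbxta) and vgll4l itself, made up 1.26% to 1.30% of normalized counts in control, 0.392% to 0.409% in Vgll4l-KD and 0.515% to 0.518% in Yap/Taz-KD clusters. Of the 8, all fell in Vgll4l-KD and 7 in Yap/Taz-KD clusters. These shares of 100% and 87.5% stand against 40.9% and 38.7% of all genes tested. Most of this outcome was known beforehand. The paper reports sox17, sox32, ta and tbx16 as lower in both knockdowns in the same libraries. By in situ hybridization it also shows lower cftr, cldn5a and ndr1 after Vgll4l knockdown, and vgll4l is the morpholino target. The counts of falls are thus a description. The gene sox17, whose reporter marked the cells, had 18139.7 ± 821 normalized counts in control clusters. It had 8628 ± 407 in Vgll4l-KD and 9686 ± 100.3 in Yap/Taz-KD clusters (log2 fold changes -1.07 and -0.90). RNA of these markers was thus present in all 3 groups, at a lower level in the knockdowns. Whether it came from DFCs alone was not tested.

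Markers of neighbouring cells were also present. Of all genes tested, 30.5% rose in Vgll4l-KD and 30% in Yap/Taz-KD clusters, and the counts below are to be read beside these shares. The 15 enveloping layer markers summed to 0.548% to 0.586% of counts in control, 3.99% to 4.54% in Vgll4l-KD and 0.793% to 0.800% in Yap/Taz-KD clusters. Of the 15, 11 were higher and 1 was lower in Vgll4l-KD clusters. In Yap/Taz-KD clusters 2 were higher, 3 were lower and 10 were not called. Markers of the yolk syncytial layer summed to 0.206% to 0.229%, 0.638% to 0.654% and 1.34% to 1.36%, with 10 of 13 higher in either knockdown. The paraxial mesoderm markers rose in 8 of 11 cases in Vgll4l-KD clusters (72.7%), where none fell. In Yap/Taz-KD clusters 4 of 11 rose, among them myod1 (log2 fold change 6.91) and pcdh8 (5.61). Another 4 fell, furthest mespaa (-6.56) and msgn1 (-5.45). Both shares of 36.4% lie near those of all genes. Among markers of tissues in which Rfx genes are known, 6 of 13 neural ectoderm markers rose in Vgll4l-KD clusters (46.2%) and 1, her3, fell (log2 fold change -1.17). Among those that rose was irx7 (6.22 ± 3.57 to 524 ± 28.6 normalized counts). The gene rfx4 rose in these clusters as well. In Yap/Taz-KD clusters, where rfx4 also rose, 3 of 13 neural markers rose (23.1%), among them irx7 (log2 fold change 3.84) and sox3 (3.78). There 5 fell, furthest zic2b (-7.44) and zic2a (-5.53). The 38.5% that fell lies near the 38.7% of all genes. Of the endoderm markers 7 of 10 rose there, led by foxa1 (0.983 ± 0.691 to 112 ± 7.96) and foxa2 (28.1 ± 7.29 to 1153 ± 32.5). The list of axial markers holds foxa2 too. In the same clusters rfx6 rose. In Vgll4l-KD clusters, where rfx6 was not called, 6 of 10 endoderm markers rose and foxa2 reached 1624 ± 198.5, whereas foxa1 had 1.37 ± 1.66. There 1 endoderm marker fell, foxa3 (log2 fold change -3.42), which the axial list holds too. Of the axial mesoderm and floor plate markers 4 of 9 rose in Vgll4l-KD (44.4%) and 3 of 9 in Yap/Taz-KD clusters, where the share of 33.3% lies near that of all genes. In each knockdown 1 of the 9 fell. The summed level of the neural markers was 0.128% to 0.130% of counts in control, 0.114% to 0.120% in Vgll4l-KD and 0.192% to 0.195% in Yap/Taz-KD clusters, and that of the endoderm markers 0.0701% to 0.0710%, 0.0816% to 0.0839% and 0.143% to 0.146%. For the paraxial mesoderm markers the sums were 0.0249% to 0.0273%, 0.0653% to 0.0694% and 0.0276% to 0.0292%, and for the axial markers 0.0911% to 0.0969%, 0.0956% to 0.0996% and 0.136% to 0.141%. No DFC, enveloping layer or neural marker was at 0 throughout a group, whereas the paraxial mesoderm marker mespaa, at 95.1 ± 19.9 normalized counts in control clusters, was at 0 in all 4 Yap/Taz-KD libraries. So were mxtx2 and apoea of the yolk syncytial layer, nog1 and foxd3 of the axial list, mespab of the paraxial list and nkx2.7 of the endoderm list, each with a mean under 7 in control clusters, and apoea, foxd3 and mespab had no read there either. The part of these cells in the changes of the 6 genes was not tested.

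How far the 6 genes changed relative to the DFC markers was asked by scaling the libraries so that the sum of the 8 markers was equal in each, a scaling chosen after the data were seen. The sum was 2.63 times as high in control as in Vgll4l-KD clusters and 2.43 times as high as in Yap/Taz-KD clusters. Most of these markers were already known to fall, so this scale is relative to responding genes and does not count DFCs. On this scale foxj1a had 247 to 252 counts per 1000 marker counts in control, 122.5 to 128 in Vgll4l-KD and 138 to 142.5 in Yap/Taz-KD clusters. Its groups stayed apart, and its log2 fold changes were -0.99 (SE 0.02, adjusted p = 1.9e-14) and -0.84 (SE 0.02, adjusted p = 1.6e-13), just short of the fold threshold. foxj1b stayed far lower (-6.29 and -6.33), rfx3 lower in Vgll4l-KD (-3.64) and higher in Yap/Taz-KD clusters (2.44), and rfx4 higher in both (7.55 and 5.51), all called.

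The genes rfx1a and rfx2 came closer to the markers. The log2 fold changes of rfx1a were -0.53 (adjusted p = 5.6e-05) and -0.93 (adjusted p = 2e-07). For rfx2 the value was -0.35 (SE 0.05, adjusted p = 6.6e-06) in Vgll4l-KD clusters, and in Yap/Taz-KD clusters it changed sign to 0.14 (SE 0.05, adjusted p = 0.013): rfx2 had 28.6 to 29.3 counts per 1000 marker counts in control, 21.6 to 24.8 in Vgll4l-KD and 30.6 to 32.6 in Yap/Taz-KD clusters. The markers fell by different amounts themselves, so another choice among them would shift these values. With the size factors as deposited, sox17 (-0.90) and sox32 (-1.10) fell less than rfx2 (-1.14) in Yap/Taz-KD clusters. The other markers, from ta (-1.25) to tbx16 (-3.46), fell further. In Vgll4l-KD clusters sox17 (-1.07) and sox32 (-1.09) fell less than the marker sum (-1.40). The sign of rfx2 in Yap/Taz-KD clusters and the place of foxj1a just short of the fold threshold thus depend on the markers chosen. Over all genes this scaling turned the balance of calls in Vgll4l-KD clusters from 40.9% lower and 30.5% higher to 30.9% lower and 45.0% higher, and in Yap/Taz-KD clusters from 38.7% and 30% to 28.4% and 44.4%.

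**Figure D4:**
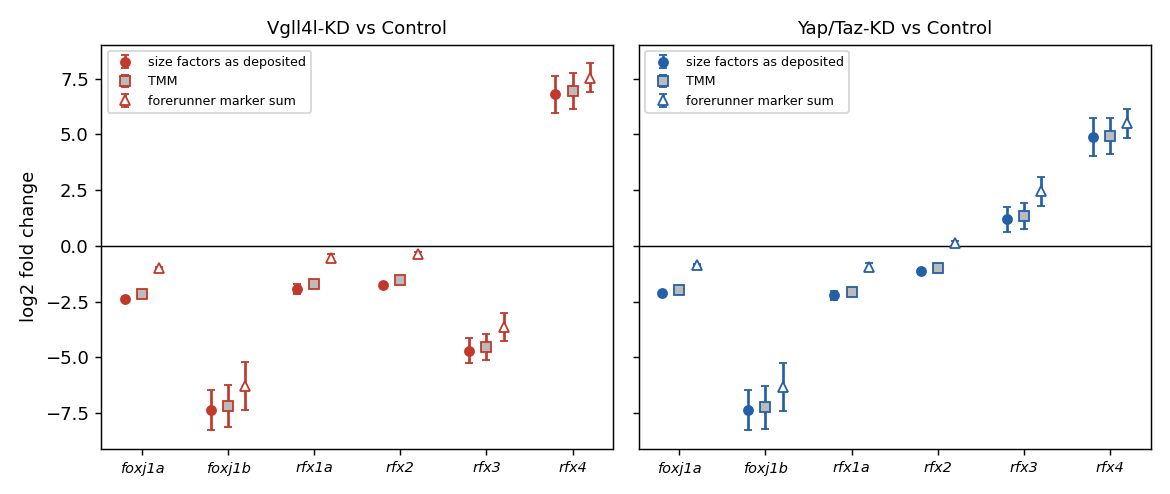
Log2 fold changes of the 6 genes against control, with 95% intervals, under the size factors as deposited (circles), TMM scaling (squares) and scaling to the summed DFC markers (triangles). foxj1b, rfx3 and rfx4 keep their direction and call under the 3 scalings, foxj1a and rfx1a keep their direction, and rfx2 in Yap/Taz-KD clusters passes from -1.14 through -0.995 to 0.14.

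The genes whose course over the 12 libraries was most like that of foxj1a, rfx1a and rfx2 were sought by the root mean square difference of log2 values after centring. The search covered 5716 genes whose mean reached 100 and whose deposited symbol was not a clone name. Genes without such a symbol were left out, also from the counts of near genes below. Nearest to foxj1a were bmpr1aa, a receptor gene of the Bmp pathway (difference 0.07), rerglb (0.08) and wapla (0.08), with log2 fold changes of -2.44, -2.32 and -2.43 in Vgll4l-KD clusters. Nearest to rfx2 was ta, the T-box gene of the DFC marker list (0.08; -1.71 and -1.25), followed by ildr1a (0.09) and arpp19a (0.09). Nearest to rfx1a were stmn2a (0.14), tmem59 (0.16) and igf2a (0.16). Within a difference of 0.25 lay 35 genes for foxj1a, 57 for rfx2 and 21 for rfx1a. All genes share the 12 libraries and their size factors, so closeness here describes the 3 group levels.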

How the data were processed

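RNA of 12 dissected clusters (SMART-Seq v4, 50-bp single-end reads) was aligned by the authors with STAR to GRCz10, counted per Ensembl gene with featureCounts and normalized with DESeq2; versions are not given in the sources used here. The deposited signal is a normalized count per gene and library, although its header names TPM: 100% of values were whole multiples of the step of their library (tolerance 0.001 reads), so whole reads were recovered. The deposited log2 fold changes and adjusted p-values of each knockdown against control, from the authors' own comparison, were not used.

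The fit was limma 3.58.1 in R 4.3.3 (limma-trend, log2(normalized count + 1), genes with a mean of at least 1, the 12 libraries in one fit, Benjamini-Hochberg over 17609 genes; called when the log2 fold change was 1 or more in either direction and the adjusted p below 0.05). It was tested on simulated data first. The spread is shared by the 3 groups, and both comparisons with control share its 4 libraries. Counting intervals are exact (conditional binomial, 95%) and cover counting error only; bounds use a floor of 3 reads per group. The precision follows depth, 4487894 to 11235726 reads per library. Of 13507 IDs without usable symbol, 8398 were named from a reference table of gene names. Levels were not compared between genes, since gene lengths were not used. The 6 genes, the lists and the tests were chosen with earlier results of these data known. Named beside the 6 genes are the other Foxj and Rfx genes, the knocked-down genes, up to 2 largest falls and rises per list and knockdown among called genes whose higher group averaged 50 or more, and the 3 nearest patterns; noto and sox17 were added after their values were seen. A further gene under this rule is left out and not reported here. Alternatives were pseudocounts of 0.5 and 10, no filter or a mean of at least 10, TMM scaling, edgeR 4.0.16 with and without filter, DESeq2 1.42.0, the groups alone, a replicate block, near-identical libraries averaged, other fold thresholds, each library left out, and scaling to the DFC markers. The averaging of near-identical libraries left the Vgll4l-KD libraries separate. Sequences and coordinates were not used here. Tables were made with pandas 2.3.3, numpy 2.4.6 and scipy 1.17.1 and figures with matplotlib 3.10.9, in Python 3.11.15.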

Additional observations from a re-analysis of the deposited data

Results flagged for a closer look

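The gene rfx3 moved in opposite directions in the knockdowns, and the difference was tested in the same fit: it was -5.89 on the log2 scale, lower in all 4 Vgll4l-KD libraries than in all 4 Yap/Taz-KD libraries (limma adjusted p = 8.2e-11). In the family list 2 single libraries lay far from the other 3 of their group. Yap/Taz-KD library 1 had the highest level of rfx5, 0.666 normalized counts, which is 1 read against none in the others. Yap/Taz-KD library 2 had the lowest level of rfx6, 41.5 normalized counts against 48.6 to 49.6 in the others, a gap of 0.877 of the range of the group. Over 37 groups of 4 libraries examined in this way, chance alone marks about 1 in 20.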

How the results depend on the processing

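Of 468 values of the 6 genes (18 results under 26 alternatives), 446 kept their direction and their side of the threshold. With a log2 threshold of 2 the calls of rfx1a (-1.93) and rfx2 (-1.75) in Vgll4l-KD, of rfx2 (-1.14) and rfx3 (1.197) in Yap/Taz-KD and of rfx4 between the knockdowns (1.92) were lost, leaving 3 of 5 falls, 1 of 2 rises and 0 of 1. With no fold threshold foxj1a (-0.28), rfx2 (-0.61) and rfx1a (0.28) also differed between the knockdowns (3 lower, 2 higher). In Yap/Taz-KD clusters rfx2 was -0.995 with TMM scaling and with edgeR without filter. With near-identical libraries averaged rfx3 missed the threshold (1.203, adjusted p = 0.093; 1 rise left). Scaled to the DFC markers, a choice made after the data were seen, the falls of foxj1a (-0.99 and -0.84) and rfx1a (-0.53 and -0.93) and of rfx2 in Vgll4l-KD (-0.35) missed the fold threshold and rfx2 turned to 0.14 in Yap/Taz-KD clusters, leaving 2 and 1 falls; the cause was not tested. The foxj1b difference between the knockdowns, not called anywhere, changed sign with the averaged libraries (-0.055) and a pseudocount of 0.5 (-0.059), and ranged from -0.39 to 0.26 with single libraries left out. Leaving out any library left the calls of the 6 genes as they were. TMM scaling moved the median of all genes by 0.19 (Vgll4l-KD) and 0.12 (Yap/Taz-KD) on the log2 scale, edgeR by 0.14 and 0.06, and DFC marker scaling by 0.88 and 0.87. Same-numbered libraries did not deviate together (r of -0.06 to 0.02 across genes). This gives no sign of pairing by number and cannot exclude it. A replicate block changed 1 count, that of other Foxj and Rfx genes higher in Yap/Taz-KD clusters, from 1 to 2, by the rfx7 ID ENSDARG00000077237. All-gene calls in Vgll4l-KD clusters with the block were 7198 lower and 5365 higher, against 7202 and 5368. The edgeR test on the recovered reads called 6899 lower and 5689 higher in Vgll4l-KD and 6707 and 5477 in Yap/Taz-KD clusters.

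Of 1248 list counts, 1141 stayed within 1.5 times. The count of other Foxj and Rfx genes that rose in Yap/Taz-KD clusters was 2 with DESeq2, TMM scaling, edgeR with and without filter and the groups alone, and 3 with DFC marker scaling; in Vgll4l-KD clusters it was 1 in place of 0 with TMM scaling, edgeR with and without filter, no fold threshold and DFC marker scaling. Upstream regulators fell in Vgll4l-KD clusters in 4 (TMM scaling, edgeR without filter), 5 (edgeR), 2 (threshold 2) and 1 (DFC marker scaling) cases in place of 9, and rose in 3 in place of 5 (threshold 2, pseudocount 10); in Yap/Taz-KD clusters 3, 9 and 2 fell in place of 5 (threshold 2, none, DFC marker scaling) and 1, 1, 4 and 5 rose in place of 2 (threshold 2, averaged libraries, no threshold, DFC marker scaling). Multiciliation regulators had 5 falls in place of 3 (edgeR without filter) and 0 and 3 rises in place of 1 (threshold 2, DFC marker scaling) in Vgll4l-KD, and 6 rises in place of 3 (DFC marker scaling) in Yap/Taz-KD clusters. Motile axoneme genes fell in 16 and 13 cases in place of 25 (threshold 2, DFC marker scaling) in Vgll4l-KD clusters, where 2 rose in place of 1 (no filter, edgeR without filter, DFC marker scaling); in Yap/Taz-KD clusters 5, 6, 16 and 4 fell in place of 10 (threshold 2, averaged libraries, no threshold, DFC marker scaling) and 2, 8 and 12 rose in place of 4 (threshold 2, none, DFC marker scaling). Of the transport and Bardet-Biedl genes 1 rose in place of 2 (threshold 2) in Vgll4l-KD, and 8 in place of 3 (DFC marker scaling) in Yap/Taz-KD clusters.

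DFC markers fell in 5 (TMM scaling, edgeR without filter) and 3 (threshold 2, DFC marker scaling) cases in place of 8 in Vgll4l-KD, and 4 and 3 in place of 7 (threshold 2, DFC marker scaling) in Yap/Taz-KD clusters. The single fall among enveloping layer, yolk syncytial layer and neural markers in Vgll4l-KD clusters became 0 with TMM scaling, edgeR with and without filter, threshold 2 and DFC marker scaling, and with no threshold 2 enveloping layer, 2 neural, 2 axial and 2 endoderm markers fell in place of 1. In Vgll4l-KD clusters 2 and 7 axial markers rose in place of 4 and 3 and 12 neural markers in place of 6 (threshold 2, DFC marker scaling). In Yap/Taz-KD clusters enveloping layer markers rose in 4 (TMM scaling, edgeR with and without filter), 0 (threshold 2) and 10 (no threshold, DFC marker scaling) cases in place of 2, and fell in 0 (threshold 2, DFC marker scaling) and 5 (no threshold) in place of 3; axial markers fell in 0 (mean of at least 10, pseudocount 10) and 3 (no threshold) in place of 1 and rose in 5 and 7 in place of 3 (no threshold, DFC marker scaling); 1 yolk syncytial layer marker fell in place of 0 (no threshold), 5 neural markers rose in place of 3 (DFC marker scaling), and 2 paraxial markers fell in place of 4 (threshold 2, DFC marker scaling). With single libraries left out, the counts that moved ranged from 0 to 1 (other Foxj and Rfx genes higher and enveloping layer or yolk syncytial layer markers lower in Vgll4l-KD, yolk syncytial layer markers lower in Yap/Taz-KD) or from 1 to 2 (other Foxj and Rfx genes higher and axial markers lower in Yap/Taz-KD, multiciliation regulators higher in Vgll4l-KD). Depth limits foxj1b, rfx3 in Vgll4l-KD and rfx4 in control clusters, at 3 or 4 reads a group.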
